A study of Mus musculus with 4 samples.

Results

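Expression of 10 genes for nucleolar proteins was measured in primary mouse neural stem cells (NSCs): the 4 core proteins of box C/D small nucleolar ribonucleoproteins (snoRNPs), Fbl, Nop56, Nop58 and Nhp2l1, the 4 core proteins of box H/ACA snoRNPs, Dkc1, Nop10, Nhp2 and Gar1, and the nucleolar phosphoproteins Ncl and Npm1. The genes were chosen by name, and each had 1 row among the 18169 rows of the expression table. All 10 reached the mean level of 1 TPM set for testing, as did 12576 rows in all. TPM (a unit that adds to the same total in every sample) is a length-normalised share of a sample's transcripts, so levels of different genes could be compared.

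The study asked which RNAs change in NSCs that lack Chd5, a chromatin remodeler of the CHD family, and compared 2 +/+ with 2 Chd5-/- samples of C57BL/6 mice. NSCs of both genotypes were grown from the periventricular region of single newborn brains, with epidermal growth factor and fibroblast growth factor 2 in the medium, and stranded mRNA libraries were sequenced. The growth protocol gives postnatal day 1 for all animals, whereas the age entries give days 1 and 2 for the +/+ replicates 1 and 2 and days 3 and 4 for the Chd5-/- replicates 1 and 2. By these entries age and genotype cannot be told apart. P-values by limma, a linear model fitted to every row, rested on the spread between 2 samples per genotype. The model shares this spread across the rows tested, so it is not that of a single gene alone. Because these were bulk cultures, fewer cells of a type and less RNA per cell cannot be told apart.

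The row of Chd5 read 0.39 and 0.37 TPM in the +/+ samples and 0.06 and 0.04 TPM in the Chd5-/- samples. The level of the targeted gene was thus lower in both samples labelled Chd5-/-. All of these values were under the 1 TPM set for testing, so the row was not tested. Of 12 neural stem and radial glia markers, 12 had a mean of at least 1 TPM, and their sum ranged from 4059 to 9963 TPM over the samples. Microglial markers summed to at most 0.75 TPM and the endothelial marker to at most 0.59 TPM. The 20 rows of highest mean TPM held between 21.6% and 35.6% of all TPM.

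In each nucleolus, box C/D snoRNPs place ribose methyl groups on ribosomal RNA and box H/ACA snoRNPs convert uridine to pseudouridine, at positions chosen by base pairing with the guide RNA each particle carries. Fibrillarin, encoded by Fbl, is the methyltransferase of the first kind, and dyskerin, encoded by Dkc1, is the pseudouridine synthase of the second kind and is also part of telomerase. Nucleolin (Ncl) and nucleophosmin (Npm1) are abundant RNA-binding proteins of the same compartment, and growing progenitor cells, which make many ribosomes, use all of these proteins.

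Several of these genes also hold guide RNA genes within them. In the GENCODE M21 annotation of GRCm38, 13 snoRNA genes lay within the 10 genes on the same strand: 5 in Nop56, 4 in Nop58, 3 in Ncl and 1 in Dkc1. Of the 13, 9 held TGATG, the core of the C box, in the first 20 bases and CTGA, the D box, in the last 20, and 2 held ACA at 3 bases from the 3′ end. An exon of some annotated host transcript overlapped 7 of the 13, and the others lay wholly in introns. The sequences below are shown because they lie in 3 of the host genes and include both kinds of guide, with these boxes in capitals, 5′ to 3′ on the strand of the gene. Snord110 lies in Nop56 (chr2:130275506-130275573, plus strand), Snord70 and Snord11 in Nop58 (chr1:59691934-59692020 and chr1:59704790-59704873, plus strand), and Snord82 and Snora75 in Ncl (chr1:86356261-86356330 and chr1:86351169-86351301, minus strand).
Snord110: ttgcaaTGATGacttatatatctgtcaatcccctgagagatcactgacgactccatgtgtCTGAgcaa
Snord70: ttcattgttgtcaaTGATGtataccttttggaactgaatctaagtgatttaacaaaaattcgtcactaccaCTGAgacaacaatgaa
Snord11: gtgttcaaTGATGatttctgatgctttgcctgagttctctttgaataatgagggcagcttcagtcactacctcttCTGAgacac
Snord82: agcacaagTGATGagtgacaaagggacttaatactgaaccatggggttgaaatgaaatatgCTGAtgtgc
Snora75: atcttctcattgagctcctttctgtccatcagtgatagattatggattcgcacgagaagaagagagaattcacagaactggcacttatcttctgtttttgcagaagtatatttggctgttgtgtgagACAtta
Of these 13 snoRNA genes, 1 had a row in the table. That row, Snora75, was at 26.6 TPM in +/+ replicate 1 and was listed at 0 in the other 3 samples, so no comparison between genotypes was made for it.

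In the values as deposited, the 10 genes did not move as a block between the genotypes. In Chd5-/- NSCs the fitted difference in log2(TPM + 1) was above 0 for 5 genes (Fbl, Nop56, Nop10, Nhp2 and Npm1) and below 0 for 5 (Nop58, Nhp2l1, Dkc1, Gar1 and Ncl). Of the 12576 rows tested, 8850 were above 0 and 3726 below. The split depends on scaling: after median-of-ratios scaling, given below, only Fbl and Nhp2 were above 0. By limma with Benjamini-Hochberg adjustment over 12576 rows, 0 of 10 passed an adjusted p of 0.05, where 0.0557% of all rows passed (0.0318% higher and 0.0239% lower in Chd5-/-). At an unadjusted p of 0.05 the count was again 0 of 10, and 24.1% of all rows passed. The 2 samples of each genotype lay apart without overlap for 5 genes, 3 higher (Fbl, Nhp2 and Npm1) and 2 lower (Nop58 and Nhp2l1) in Chd5-/- samples, against 59.4% of all rows without overlap, 46.3% higher and 13.0% lower. The median difference was 0.047 in log2(TPM + 1) for the 10 genes and 0.34 for all rows tested.

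Npm1 was by far the most abundant of the 10, with 99.4% of rows below its mean TPM, and Gar1 the least abundant by its mean over the 4 samples, with 53.8% of rows below. In +/+ NSCs the order of mean TPM was Npm1, Ncl, Nhp2l1, Nop58, Nop10, Nop56, Dkc1, Fbl, Gar1 and Nhp2. Neighbours whose +/+ samples overlapped were Ncl with Nhp2l1, Nop58 with Nop10, and Dkc1 with Fbl. In Chd5-/- NSCs the first 3 places were the same, and from Nop10 down (Nop10, Nop56, Nop58, Fbl, Dkc1, Nhp2, Gar1) each gene overlapped the next.

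**Figure D1:**
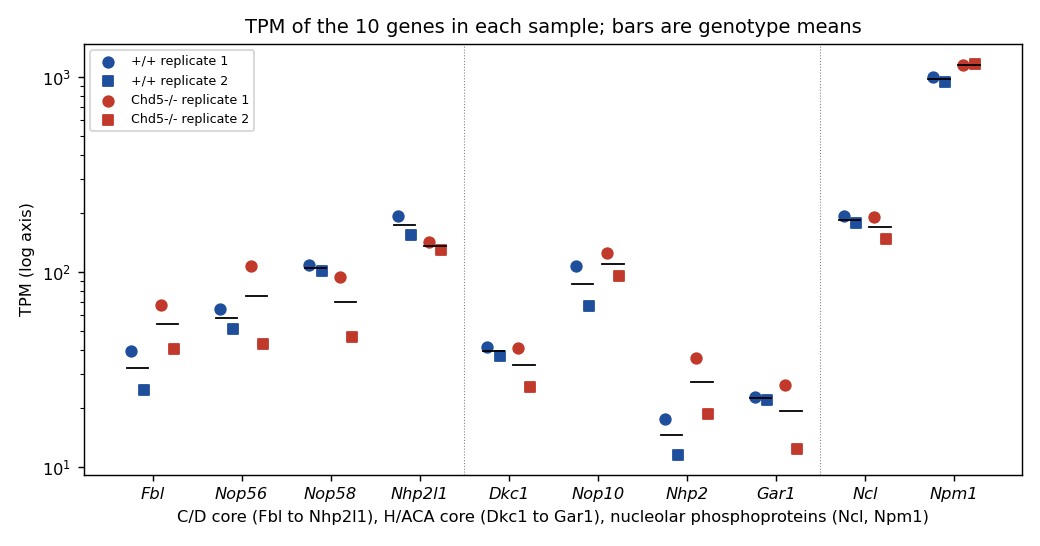
TPM on a log axis of the 10 genes in each of the 4 NSC samples, with 1 point per sample and the 2 genotypes in different colours. Npm1 stood between 947 and 1173 TPM, and the points of Nop56, Nop58 and Gar1 were further apart between the 2 Chd5-/- samples than between the 2 +/+ samples.

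Among the box C/D core genes, Fbl and Nop58 had the largest fitted differences, in opposite directions. Fbl read 39.4 and 24.8 TPM in +/+ cultures against 67.7 and 40.4 TPM in Chd5-/- cultures. The groups just failed to touch, since the lower Chd5-/- sample was barely above the higher +/+ sample. The difference in log2(TPM + 1) was 0.72 ± 0.37 (SE, n = 2 per genotype, limma adjusted p = 0.293). Nop58, which with Nop56 forms the scaffold of the particle, was at 108 and 101 TPM in +/+ samples and at 94.5 and 46.7 TPM in Chd5-/- samples. Both Chd5-/- values were lower, 1 slightly and 1 by far. The difference in log2(TPM + 1) was -0.64 ± 0.37 (SE, n = 2 per genotype, limma adjusted p = 0.341). Without Chd5-/- replicate 1 it was -1.15 with a limma adjusted p of 0.0372, in a fit that called 1247 of all rows.

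Nop56, the partner of Nop58, was at 65.0 and 50.9 TPM in +/+ samples and at 107 and 42.8 TPM in Chd5-/- samples. The Chd5-/- samples held both the highest and the lowest of the 4 values, and the difference in log2(TPM + 1) was 0.23 ± 0.47 (SE, n = 2 per genotype, limma adjusted p = 0.777). Nhp2l1, now named Snu13, encodes the protein that first binds the C/D box RNA and that also sits in the spliceosome. It was at 195 and 155 TPM in +/+ samples and 143 and 130.2 TPM in Chd5-/- samples. Both Chd5-/- values lay under both +/+ values, and the difference in log2(TPM + 1) was -0.35 ± 0.23 (SE, n = 2 per genotype, limma adjusted p = 0.398).

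Of the box H/ACA core genes, Nhp2, whose product binds the guide RNA stem, had the largest difference. It was at 17.6 and 11.5 TPM in +/+ samples and 36.0 and 18.8 TPM in Chd5-/- samples. The lower Chd5-/- sample was only a little above the higher +/+ sample. The difference in log2(TPM + 1) was 0.83 ± 0.40 (SE, n = 2 per genotype, limma adjusted p = 0.273), the largest of the 10 genes.

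The other 3 H/ACA core genes overlapped between genotypes. Dkc1, on the X chromosome, was at 41.3 and 37.1 TPM in +/+ samples and 40.9 and 25.9 TPM in Chd5-/- samples, a difference in log2(TPM + 1) of -0.26 ± 0.30 (SE, n = 2 per genotype, limma adjusted p = 0.612). Nop10, a small protein that contacts dyskerin near its active site, was at 107 and 66.8 TPM in +/+ samples and at 125 and 95.8 TPM in Chd5-/- samples, a difference of 0.37 ± 0.31 (SE, n = 2 per genotype, limma adjusted p = 0.502) on the same log2 scale. In both genes 1 Chd5-/- value fell between the +/+ values. Gar1, which joins the particle late, in exchange for the assembly factor Naf1, was at 22.9 and 22.1 TPM in +/+ samples and 26.3 and 12.4 TPM in Chd5-/- samples, so that the nearly equal +/+ values lay inside the Chd5-/- range. Its difference in log2(TPM + 1) was -0.30 ± 0.39 (SE, n = 2 per genotype, limma adjusted p = 0.661).

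The nucleolar phosphoprotein genes were the most abundant of the 10 by mean TPM. Ncl was at 193 and 178 TPM in +/+ samples and 192 and 147 TPM in Chd5-/- samples. These values overlapped, with a difference in log2(TPM + 1) of -0.14 ± 0.24 (SE, n = 2 per genotype, limma adjusted p = 0.737). Npm1 was at 1002 and 947 TPM in +/+ samples and 1146 and 1173 TPM in Chd5-/- samples. It was higher in both Chd5-/- samples with replicates no more than 0.08 apart in log2(TPM + 1), and had a difference in log2(TPM + 1) of 0.25 ± 0.24 (SE, n = 2 per genotype, limma adjusted p = 0.546). This difference was less than the median of all rows, and it was -0.12 after median-of-ratios scaling. Npm3, a paralog of Npm1, was at 45.0 and 37.5 TPM in +/+ samples and 55.5 and 38.7 TPM in Chd5-/- samples, with overlap and a limma adjusted p of 0.726. Npm2, best known from oocytes, did not exceed 0.47 TPM in any sample. Npm1 has processed pseudogenes that can share its reads, and Nop56, Nhp2 and Dkc1 overlap the ends of opposite-strand genes by 5, 44 and 45 bases, so single values of these 4 genes carry that uncertainty.

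Summed over a complex, the box C/D core was at 408 and 332 TPM in +/+ samples and 412 and 260.0 TPM in Chd5-/- samples. The box H/ACA core summed to 189 and 138 TPM in +/+ samples and to 228 and 153 TPM in Chd5-/- samples. Both sums overlapped between genotypes, and in each genotype replicate 1 was above replicate 2. The 10 genes together made up 1791 and 1593 TPM in +/+ samples and 1979 and 1733 TPM in Chd5-/- samples.

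Because TPM values of a sample are shares of 1 total, directions were also read after other scalings. TPM values rescaled without the 20 rows of highest mean TPM, median-of-ratios scaling, quantile normalisation and removal of trends with transcript GC content and length all placed Fbl and Nhp2 above 0 and Nop58 and Nhp2l1 below 0. Over these 4 the difference in log2(TPM + 1) ranged from 0.12 to 0.50 for Fbl, from 0.026 to 0.61 for Nhp2, from -1.01 to -0.63 for Nop58 and from -0.72 to -0.43 for Nhp2l1. Dkc1 (-0.62 to -0.26), Gar1 (-1.24 to -0.53) and Ncl (-0.51 to -0.21) stayed below 0, whereas Nop56 (-0.18 to 0.073), Nop10 (-0.0022 to 0.27) and Npm1 (-0.12 to 0.27) took both signs. The 10 genes had a median of -0.32 under median-of-ratios scaling, -0.16 under quantile normalisation, -0.19 without the top rows and -0.20 without GC and length trends, where the median of all rows was 0.0051, -0.054, 0.13 and -0.029.

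Rows of GC-rich transcripts tended to larger differences between genotypes (rho by Spearman of 0.60 over 12103 rows, a description across genes of the same 4 libraries). GC content and length were those of the longest annotated transcript of each gene, which need not be the transcript expressed in these cells. That transcript was 9507 bases long for Nop58 and 8202 for Ncl, so the removal of trends is least certain for these genes. By this measure the 10 genes spanned 41.0% GC (Nop58) to 57.0% GC (Gar1), and among them rho was 0.43 (n = 10 genes). With GC and length trends removed, the log2 difference of the GC-rich Nhp2 went from 0.83 to 0.026, that of Fbl from 0.72 to 0.12, and that of Gar1 from -0.30 to -1.24, while the GC-poor Nop58 moved from -0.64 to -0.63. Gar1 then had an unadjusted p of 0.0187 and an adjusted p of 0.415 by limma.

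**Figure D2:**
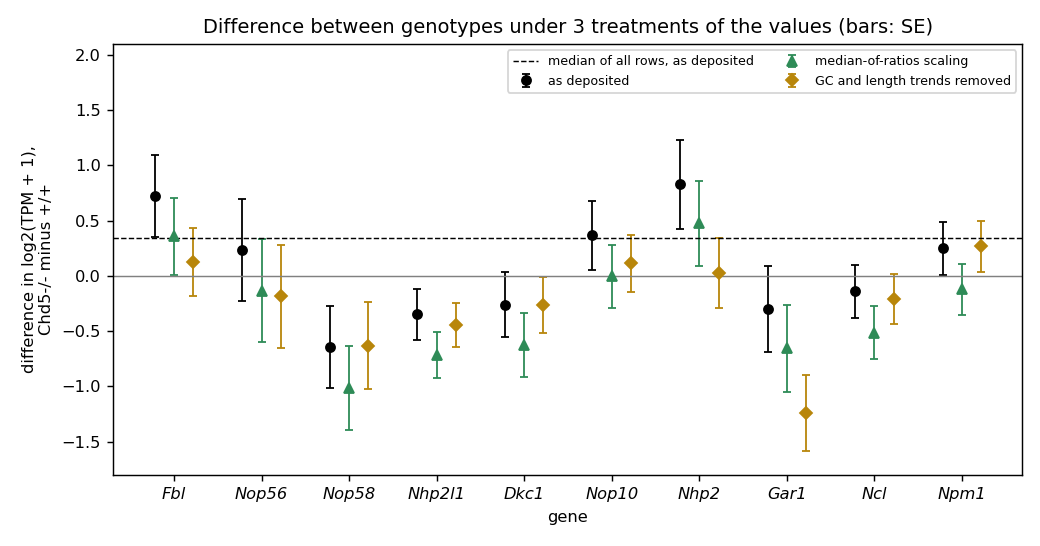
Difference between genotypes (Chd5-/- minus +/+) in log2(TPM + 1) for each of the 10 genes as deposited, after median-of-ratios scaling and with GC and length trends removed. Bars are SE from limma over 2 samples per genotype and the dashed line is the median of all rows as deposited, 0.34. Fbl and Nhp2 stayed above 0 and Nop58, Nhp2l1, Dkc1, Gar1 and Ncl below 0, while Nop56, Nop10 and Npm1 changed sign.

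A larger pattern lay between the replicates. In log2(TPM + 1) replicate 1 exceeded replicate 2 for 10 of 10 genes in +/+ NSCs and for 9 of 10 in Chd5-/- NSCs, against 65.9% and 49.8% of all rows. The median gap of the 10 genes was 0.24 in +/+ and 0.69 in Chd5-/- NSCs, where all rows had 0.14 and -0.0021. In Chd5-/- NSCs the gap was widest for Nop56 (1.31), Gar1 (1.03), Nop58 (1.00) and Nhp2 (0.90), which include both scaffold proteins of the C/D particle, and it was -0.03 for Npm1. For 8 of the 10 genes the gap between the Chd5-/- samples was larger than the difference between genotypes, as it was for 47.0% of all rows. The highest of the 4 values was in Chd5-/- replicate 1 for 5 genes, and the lowest was in Chd5-/- replicate 2 for 6. No share over all rows is given for these counts, so they do not set the 10 genes apart.

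**Figure D3:**
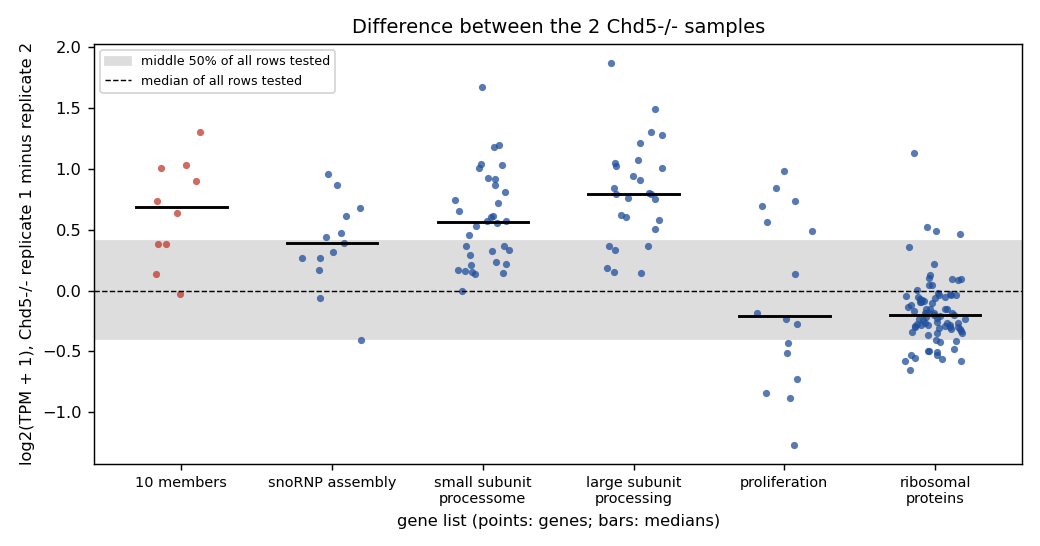
Replicate 1 minus replicate 2 in log2(TPM + 1) between the Chd5-/- samples, with 1 point per gene. Shown are the 10 genes and the assembly, processome, large subunit processing, proliferation and ribosomal protein lists. Bars are list medians, and the band and dashed line are the middle part and the median of all rows tested. Of the 10 genes 9 lay above 0, and the gap reached 1.31 for Nop56.

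The replicates differed in other respects too. Astrocyte markers were lower in replicate 1 of both genotypes, with sums of 78.6 and 238 TPM in +/+ replicates 1 and 2 and 111 and 314 TPM in Chd5-/- replicates 1 and 2. The sum of neural stem and radial glia markers was 4059 TPM in Chd5-/- replicate 1 and 7023 TPM in Chd5-/- replicate 2, against 9963 and 8301 TPM in the +/+ samples. Fabp7 alone was at 1939 and 3822 TPM in Chd5-/- replicates 1 and 2 and at 5892 and 4316 TPM in the +/+ samples. Of the 12 markers 3 (Nes, Prom1 and Hes1) were higher in Chd5-/- replicate 1 than in Chd5-/- replicate 2. Of 6 mesenchymal markers 2 had a mean of at least 1 TPM, and the 6 summed to 12.2 TPM in Chd5-/- replicate 1 and to at most 0.17 TPM elsewhere. Markers of the oligodendrocyte lineage summed to 571 and 631 TPM in +/+ replicates 1 and 2 and to 504 and 928 TPM in Chd5-/- replicates 1 and 2. Much of the Chd5-/- sums was Olig1 (301 and 664 TPM). Of the 7 markers 1, Olig2 (190 and 170 TPM), was higher in Chd5-/- replicate 1 than in Chd5-/- replicate 2. Of 7 neuronal markers 3 had a mean of at least 1 TPM, and their sum of 372 and 798 TPM in Chd5-/- replicates 1 and 2 was nearly all Map2 (366 and 785 TPM), while Rbfox3 was at most 0.07 TPM in any sample. The part of these differences in the levels of the nucleolar genes was not tested.

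Proteins of 1 particle are needed in fixed proportions, so ratios of TPM within a sample were compared. They are ratios of RNA and do not give protein proportions. Ncl over Npm1 and the C/D sum over the H/ACA sum, also examined, do not pair proteins of 1 particle. A ratio within a sample does not depend on how the total was scaled. The ratio of Nop56 to Nop58 was 0.600 and 0.506 in +/+ samples and 1.13 and 0.918 in Chd5-/- samples, and that of Fbl to Nhp2l1 was 0.202 and 0.160 in +/+ and 0.474 and 0.310 in Chd5-/- samples. Neither pair overlapped between genotypes, with log2 differences of 0.89 and 1.09. Of 6 ratios examined, 5 did not overlap, where 55.4% of all pairs among 12468 tested rows above 0 TPM in every sample did not. Each of the 5 had an exact two-sided permutation p of 0.333, the smallest that 2 against 2 samples can give and therefore the smallest adjusted value possible.

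The ratio of Nhp2 to Nop10 was 0.164 and 0.172 in +/+ and 0.288 and 0.196 in Chd5-/- samples, a log2 difference of 0.50, and Ncl to Npm1 was 0.193 and 0.188 in +/+ and 0.167 and 0.125 in Chd5-/- samples, a log2 difference of -0.39. The C/D sum over the H/ACA sum was 2.16 and 2.41 in +/+ and 1.81 and 1.70 in Chd5-/- samples, a log2 difference of -0.38. Dkc1 to Gar1 was at 1.80 and 1.68 in +/+ samples and 1.55 and 2.09 in Chd5-/- samples, with overlap, a log2 difference of 0.053 and an exact permutation p of 1.0. The genes of a pair differ in GC content. With GC and length trends removed from log2(TPM + 1), the difference was 0.45 for Nop56 over Nop58, 0.57 for Fbl over Nhp2l1, -0.48 for Ncl over Npm1, -0.086 for Nhp2 over Nop10 and 0.98 for Dkc1 over Gar1.

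**Figure D4:**
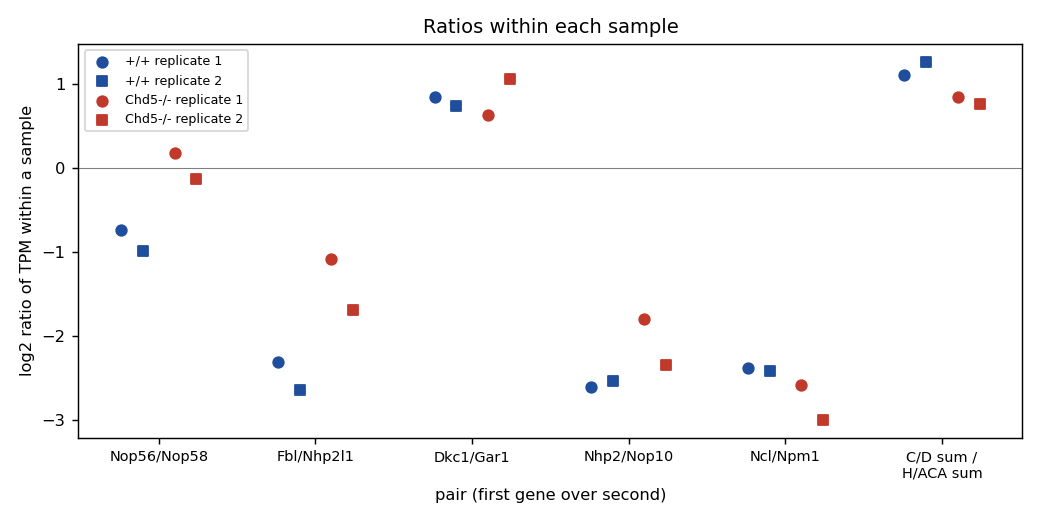
Log2 ratio of TPM within each sample for 5 pairs of genes and for the sum of the C/D core over the sum of the H/ACA core, with 1 point per sample. The samples of the genotypes did not overlap for 5 of the 6 ratios, and they overlapped for Dkc1 over Gar1.

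Assembly of these particles needs helpers, among them the R2TP complex (Ruvbl1, Ruvbl2, Pih1d1 and Rpap3), which loads the C/D proteins, and Naf1 and Shq1, which escort dyskerin. Of 13 assembly and trafficking genes 0 passed an adjusted p of 0.05 by limma, and at an unadjusted p of 0.05 4 were higher and 1 lower in Chd5-/- NSCs, where 21.9% and 2.27% of all rows were. Without +/+ replicate 2 the number past that level went from 5 to 1. Their median difference in log2(TPM + 1) was 0.24 as deposited and took both signs over the 4 other scalings: 0.011 without the top rows, -0.075 with GC and length trends removed, -0.12 under median-of-ratios scaling and -0.18 under quantile normalisation.

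Pih1d1 was at 5.48 and 2.85 TPM in +/+ samples and 18.3 and 16.2 TPM in Chd5-/- samples, a difference of 1.87 in log2(TPM + 1) (limma adjusted p = 0.120). Ruvbl2, an ATPase of the same complex, was at 10.3 and 5.97 TPM in +/+ and 24.6 and 17.4 TPM in Chd5-/- samples, a difference of 1.29 (limma adjusted p = 0.138) on that scale. Neither overlapped between genotypes, and their differences were 0.87 and 0.34 once GC and length trends were removed. Wrap53, which brings some H/ACA RNPs to Cajal bodies, was at 1.89 and 1.65 TPM in +/+ and 5.88 and 6.19 TPM in Chd5-/- samples (difference 1.35, limma adjusted p = 0.121). Tcof1, the nucleolar protein treacle, was at 1.66 and 1.25 TPM in +/+ and 4.48 and 3.39 TPM in Chd5-/- samples (difference 1.00, limma adjusted p = 0.171). These 2 genes were likewise without overlap, and their differences were 0.46 and 0.10 with GC and length trends removed.

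Naf1 lay the other way. It was at 52.6 and 59.6 TPM in +/+ samples and 38.0 and 28.7 TPM in Chd5-/- samples, without overlap. The difference in log2(TPM + 1) was -0.74 (limma unadjusted p = 0.0291, adjusted p = 0.171), and over the 4 other scalings it ranged from -1.11 to -0.96. Nufip1, an adaptor that binds Nhp2l1, was at 12.8 and 12.7 TPM in +/+ samples and at 9.42 and 7.64 TPM in Chd5-/- samples, also without overlap (difference -0.53, limma adjusted p = 0.286). The other 7 were Ruvbl1 with a difference of 0.61, Coil with 0.24, Rpap3 with 0.24, Znhit3 with 0.22, Nolc1 with 0.14, Shq1 with 0.12 and Znhit6 with -0.34 in log2(TPM + 1).

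Downstream in ribosome synthesis, 34 genes of the U3 snoRNP and small subunit processome had a median difference of 0.20 in log2(TPM + 1), and 27 tested genes for large subunit processing had 0.29. By limma 0 of either list passed an adjusted p of 0.05, and 4 of 34 and 3 of 27 genes were higher at an unadjusted p of 0.05, with 0 lower, against 21.9% of all rows higher and 2.27% lower. Over the 2 lists these numbers went to 0 and 0 without +/+ replicate 2, to 10 and 7 in either direction without Chd5-/- replicate 1 and to 6 and 12 without Chd5-/- replicate 2. Both medians turned negative under median-of-ratios scaling (-0.13 and -0.071), under quantile normalisation (-0.22 and -0.14), on removal of GC and length trends (-0.14 and -0.16) and without Chd5-/- replicate 1 (-0.049 and -0.17). In the first list the lowest differences were of Pno1 (81.2 ± 1.34 TPM in +/+ and 48.9 ± 36.8 TPM in Chd5-/- samples, SD, n = 2) and Utp18 (64.8 ± 6.09 and 39.0 ± 17.4 TPM), and the highest were of Tbl3 (2.98 ± 1.08 and 8.11 ± 0.679 TPM) and Wdr46 (1.67 ± 0.460 and 4.76 ± 0.608 TPM). None of these 4 passed adjustment. Removing GC and length trends took the difference in log2(TPM + 1) from 1.22 to 0.47 for Tbl3 and from 1.12 to 0.17 for Wdr46. In the second list Rrs1 and Ddx21 had the lowest differences, -0.52 and -0.51, with overlap. Pes1 (19.5 ± 7.32 TPM in +/+ and 38.0 ± 3.49 TPM in Chd5-/- samples, SD, n = 2) and Rrp1 (54.8 ± 11.4 and 98.3 ± 7.16 TPM) had the highest, without overlap and with limma adjusted p-values of 0.169 and 0.147. Removing GC and length trends took the difference in log2(TPM + 1) from 0.98 to 0.53 for Pes1 and from 0.84 to -0.029 for Rrp1.

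The gap between the Chd5-/- samples ran through the same lists. Replicate 1 exceeded replicate 2 for 33 of 34 processome genes, 27 of 27 large subunit processing genes and 11 of 13 assembly genes, with median gaps in log2(TPM + 1) of 0.56, 0.80 and 0.39. Among 16 proliferation genes it did so for 7, which were Pcna and Mcm2 to Mcm7 (7 of 7, gaps of 0.14 to 0.98), genes of DNA replication. The 9 mitotic genes gave 0 of 9, with gaps of -1.27 to -0.18. This division was made after the values were seen. Ribosomal protein genes gave 14 of 84, with a median gap of -0.20, and all rows 49.8%. Between the +/+ samples replicate 1 exceeded replicate 2 for 31 of 34 processome and 24 of 27 large subunit processing genes. For assembly genes it did so for 11 of 13. The median +/+ gaps of these lists were 0.20, 0.26 and 0.24. The +/+ counts were 16 of 16 for proliferation and 83 of 84 for ribosomal protein genes, against 65.9% of all rows.

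**Figure D5:**
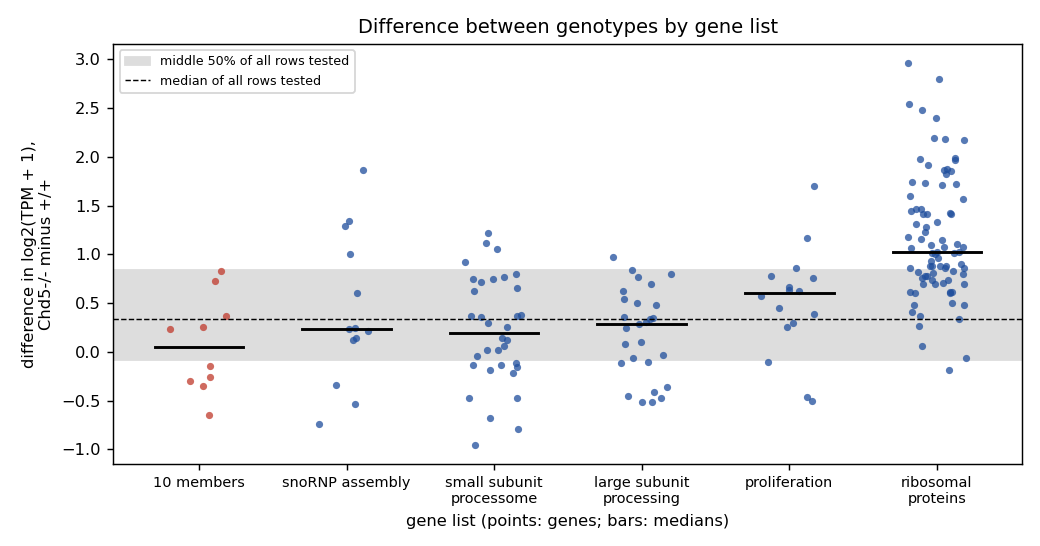
Difference between genotypes in log2(TPM + 1) for every tested gene of the nucleolar genes, of the assembly, processome, large subunit processing and proliferation lists and of the cytosolic ribosomal protein genes, with 1 point per gene and the median of each list. As deposited, the medians ran from 0.047 for the 10 nucleolar genes to 1.03 for the ribosomal protein genes, and those of the nucleolar, assembly, processome and large subunit lists turned negative under median-of-ratios scaling.

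The proliferation list had a median difference of 0.60 in log2(TPM + 1), with 2 of 16 genes higher and 0 lower at an unadjusted p of 0.05 by limma, against 21.9% and 2.27% of all rows, and 0 at an adjusted p of 0.05. The median was 0.23 under median-of-ratios scaling, 0.28 under quantile normalisation, 0.37 without the top rows, 0.21 with GC and length trends removed and 0.23 without +/+ replicate 2. Ccnb2, a mitotic cyclin, was at 14.0 ± 6.69 TPM in +/+ and 49.7 ± 29.6 TPM in Chd5-/- samples, and Aurka, a mitotic kinase, at 8.70 ± 3.08 and 20.7 ± 5.39 TPM (SD, n = 2). The lowest differences were of Mcm4, -0.50, and Pcna, -0.47, both without overlap.

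The 84 cytosolic ribosomal protein genes, all that the study counted, had a median difference of 1.03 in log2(TPM + 1). The study reported this family as raised from these same samples, so its direction here is no independent evidence. At an unadjusted p of 0.05 65 were higher and 0 lower, against 21.9% and 2.27% of all rows, and 0 passed an adjusted p of 0.05 by limma. The number past the unadjusted level was 25 without +/+ replicate 2, 28 with GC and length trends removed and 40 under median-of-ratios scaling, and the median was 0.72, 0.52 and 0.65. Rps15 had 45.0 ± 11.6 TPM in +/+ and 354 ± 46.0 TPM in Chd5-/- samples and Rpl8 had 36.3 ± 14.6 and 249 ± 10.8 TPM (SD, n = 2), whereas Rps27l and Rpl22l1 had the lowest differences, -0.19 and -0.06. The median log2(TPM + 1) of the 10 nucleolar genes minus that of the ribosomal protein genes was -2.36 and -2.29 in +/+ samples and -2.89 and -4.25 in Chd5-/- samples. These values did not overlap and differed by -1.24 between genotypes, with an exact two-sided permutation p of 0.333, the smallest the design allows. Because it is set against a family reported as raised from these same samples, this contrast is no independent evidence either.

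Among 8009 rows outside the lists with a mean of at least 10 TPM, the 3 whose centred profile over the 4 samples was nearest to the mean profile of the 10 genes by Euclidean distance in log2(TPM + 1) were Bri3bp (0.015), Aifm1 (0.072) and Coq5 (0.073). Bri3bp was at 33.0 and 26.5 TPM in +/+ samples and 39.6 and 24.6 TPM in Chd5-/- samples. The 10 genes themselves lay at distances of 0.31 (Ncl) to 0.80 (Nhp2).

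Promoter windows of 300 bases, from 250 before to 50 after the gene start, were available from RefSeq on GRCm38.p6 for 8 of the 10 genes. The E box CACGTG, a motif bound by Myc, was in 0 of these 8 windows and in 7.15% of 32851 windows of all genes. It was in 8 of 28 windows (28.6%) of the processome list, 5 of 29 (17.2%) of the large subunit processing list, 8 of 74 (10.8%) of the ribosomal protein list and 1 of 13 (7.69%) of the assembly list. The ETS core CGGAAG, searched on both strands and chosen after the sequences had been seen, was in 4 of the 8 windows (Gar1, Nhp2, Nop10 and Nhp2l1) and in 16.9% of all windows. The ribosome synthesis lists had it in 55.2% to 67.9% of windows, so the nucleolar genes were not set apart from these lists by it. Parts of the windows are shown for 2 of the 4 genes because they share the core although Gar1 and Nhp2l1 differ in GC content and level. These are the 120 bases before the start on the gene's strand, with the core or its reverse complement in capitals, for Gar1 (chr3:129831397-129831516, minus strand) and Nhp2l1 (chr15:82047599-82047718, minus strand).
Gar1: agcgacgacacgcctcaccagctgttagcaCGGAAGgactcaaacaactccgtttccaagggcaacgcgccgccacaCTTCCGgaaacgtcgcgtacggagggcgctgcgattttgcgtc
Nhp2l1: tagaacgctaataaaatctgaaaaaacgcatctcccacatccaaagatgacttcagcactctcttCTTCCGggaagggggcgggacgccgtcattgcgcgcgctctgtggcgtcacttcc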

How the data were processed

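RNA-seq values of NSC cultures from 2 +/+ and 2 Chd5-/- mice were analysed. They came as 1 table of TPM, deposited by the authors, in which each row is a gene name. The submitters' processing notes list Bowtie2 2.2.3, RSEM 1.2.20 and mm10; the annotation and the strand setting are not given in the sources used here. TPM keeps no depth, so precision rests on the 2 samples per genotype. The number of value columns without a sample was 0. Rows averaging 1 TPM or more were tested as log2(TPM + 1) with limma 3.58.1 in R 4.3.3 (trend, two-sided, Benjamini-Hochberg over 12576 rows), after a check of the scripts on simulated data. Fold changes on this scale understate low genes. Ratios were tested by exact permutation.

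The genes and lists were chosen with earlier results of these data known. Genes were named by a rule: the 10 nucleolar genes, their paralogs, all assembly genes, the 2 highest and the 2 lowest of each other list (the lists of the processome, large subunit processing, proliferation and ribosomal proteins), the 3 nearest profiles and Chd5. The paralog Fbll1 and Bxdc2 of the large subunit list are not analysed here, and Nle1 of that list was under 1 TPM. Markers of neural stem cells, neurons, astrocytes, oligodendrocyte lineage, microglia, endothelium, mesenchymal cells and ependymal cells served as a check. Ependymal markers summed to 1.87 to 7.12 TPM. Alternatives were other pseudocounts (0.1 and 5), minimum levels (none and 10 TPM), scalings, removal of GC and length trends, a replicate block and leaving out each sample.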

Additional observations from a re-analysis of the deposited data

How the results depend on the processing

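Of 150 fitted differences of single nucleolar genes under alternatives, 140 kept direction and side of the threshold, 9 changed sign and 1 became significant. The 150 include fits with another minimum level, with a replicate block, with a crossed pairing and without the limma trend. Such fits leave each difference as it was, so signs in them were fixed in advance and add nothing to the count that kept direction. Signs changed after median-of-ratios scaling for Nop56 (-0.13), Nop10 (-0.0022) and Npm1 (-0.12), after quantile normalisation for Npm1 (-0.082) and with GC and length trends removed for Nop56 (-0.18). Without 1 Chd5-/- sample signs changed too, so that leaving out each sample gave ranges of -0.42 to 0.89 for Nop56, -0.58 to 0.061 for Dkc1, -0.81 to 0.21 for Gar1 and -0.33 to 0.049 for Ncl. Without Chd5-/- replicate 1 Nop58 was at -1.15 with a limma adjusted p of 0.0372 (0.0372 to 0.828 over its alternatives), so 0 to 1 of the 10 genes and 0 to 8 of the pathway genes passed over these fits, but 0 to 1247 of all rows did as well (1247 without Chd5-/- replicate 1, 1086 without Chd5-/- replicate 2, 0 without either +/+ sample). In each of these fits the lone sample was assumed to vary like the other genotype. The count of pathway genes left out the cytosolic ribosomal protein genes, so its range does not hold for that list. Of all rows 7 passed with all samples, 4 with a pseudocount of 0.1, 0 with no minimum level, 1 after quantile normalisation and 3 with GC and length trends removed. In ratios, an alternative added after the data were seen, the removal of GC and length trends in log2(TPM + 1), moved Nop56 over Nop58 to 0.45, Fbl over Nhp2l1 to 0.57, Dkc1 over Gar1 to 0.98 and Nhp2 over Nop10 to -0.086. The causes were not tested.

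With the replicate number as a block 0 rows passed, and 2 of the 10 genes, Fbl and Nhp2, passed 0.05 by limma without adjustment and 0 of 10 with it. Deviations of equal-numbered samples from their group means correlated at r = -0.152 over 12576 rows. This value cannot decide whether equal-numbered samples shared a batch or handling, which was not tested. A crossed pairing, added after the data were seen, gave 5 rows, 0 of them nucleolar genes.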
